A study of Homo sapiens with 6 samples.

Results

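MHC class I antigen presentation was followed here through 9 genes, HLA-B, HLA-C, HLA-E, HLA-F, B2M, TAP1, TAP2, TAPBP and NLRC5. They were found by matching these names to the gene symbols of the count data, which held 24462 symbols, and all 9 had at least 1 count. The data came from 1CT, an immortalized line of human colonic epithelial cells with hTERT manipulation, labelled WT, and from 1CT-A, the same line with APC depleted, labelled APC KD. Each cell line had 3 libraries, grown without treatment in one shared medium with EGF, hydrocortisone, insulin, transferrin, selenite and serum. The libraries were made with a QuantSeq kit, which reads the 3′ ends of transcripts. Both arms are 1 cell line each, and neither was exposed to interferon or to immune cells. The labels do not say whether the libraries of a cell line came from separate cultures, so the p-values measure the spread between these libraries, which may be technical.

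MHC class I molecules show peptides from inside the cell to CD8 T cells, and are also read by natural killer cells. Proteasomes cut proteins into peptides, the transporter TAP, made of TAP1 and TAP2, pumps them into the endoplasmic reticulum, and tapasin, the product of TAPBP, bridges TAP to an empty heavy chain paired with B2M until a fitting peptide is bound. HLA-B and HLA-C are classical heavy chains, HLA-E mainly shows leader peptides of other class I chains to NKG2A and CD94 receptors, HLA-F is a further nonclassical chain, and NLRC5 is the transactivator that docks on the promoters of this pathway.

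In the reference annotation (GENCODE release 44, GRCh38), 7 members lie on chromosome 6 in the MHC. HLA-F is at chr6:29722775-29738528 and HLA-E at chr6:30489509-30494194 on the plus strand. HLA-C is at chr6:31268749-31272130, HLA-B at chr6:31353872-31367067, TAP2 at chr6:32821833-32838739, TAP1 at chr6:32845209-32853816 and TAPBP at chr6:33299694-33314284 on the minus strand. B2M is at chr15:44711358-44718851 and NLRC5 at chr16:56989485-57083531, both on the plus strand. The count data hold no coordinates, so these positions describe the annotation and not how reads were counted.

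Promoter letters of 7 of the 9 members, all but HLA-E and NLRC5, were taken from RefSeq (GRCh38.p14). They run from 250 bases before to 50 after the start annotated there, which need not be where the GENCODE span given above begins. The promoter of HLA-B, at chr6:31357130-31357429, lies inside the span of that gene. They are shown because this pathway is known for a shared promoter layout, in which a kappaB site and an interferon response element lie upstream of an S-X-Y module bound by RFX, CREB or ATF1, and NF-Y, on which NLRC5 docks. The letters searched on both strands were GGGANTNNCC (kappaB-like), AANNGAAA (IRF-like), TGACG (X2-like) and ATTGG (Y-like, the reverse complement of CCAAT). Capitals mark the matches, and adjacent capitals can be matches that overlap. The windows shown are chr6:31357226-31357361 (minus strand), chr6:31272139-31272289 (minus strand), chr15:44711370-44711477 (plus strand), chr6:32838765-32838806 (minus strand) and chr6:33314078-33314101 (minus strand), each running from 5 bases before the first match to 5 bases after the last.
HLA-B: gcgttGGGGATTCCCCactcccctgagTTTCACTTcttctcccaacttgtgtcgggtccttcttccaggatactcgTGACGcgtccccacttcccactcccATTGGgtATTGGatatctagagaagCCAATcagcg
HLA-C: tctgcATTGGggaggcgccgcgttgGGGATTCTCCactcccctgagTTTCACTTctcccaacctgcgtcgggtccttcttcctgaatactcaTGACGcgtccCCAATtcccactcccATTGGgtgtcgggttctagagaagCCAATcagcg
B2M: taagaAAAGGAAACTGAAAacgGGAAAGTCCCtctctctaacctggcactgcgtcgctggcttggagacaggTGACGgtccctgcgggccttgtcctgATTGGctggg
TAP2: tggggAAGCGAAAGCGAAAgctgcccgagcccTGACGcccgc
TAPBP: gaggaAAGTGAAAGTGAAAggagg

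HLA-B, HLA-C and B2M held all 4 motifs, and in each an X2-like match was followed 10 to 30 bases downstream by a Y-like match on the same strand. This arrangement occurred in 0.775% of the 35116 promoters of the same length. HLA-F, TAP1, TAP2 and TAPBP did not hold it. TAPBP matched only the IRF-like letters, in a pair that overlaps, and TAP2 held the same kind of pair followed by 1 X2-like match. Among all promoters, 5.13% held the kappaB-like letters, 22.8% the IRF-like, 24.6% the X2-like and 34.6% the Y-like, so single matches other than the kappaB-like one are common. The promoters of HLA-B and HLA-C were identical at 269 of 304 aligned positions (88.5%), and HLA-F was identical to HLA-B at 79.2% and to HLA-C at 78.5%. A match describes letters and not binding.

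**Figure D1:**
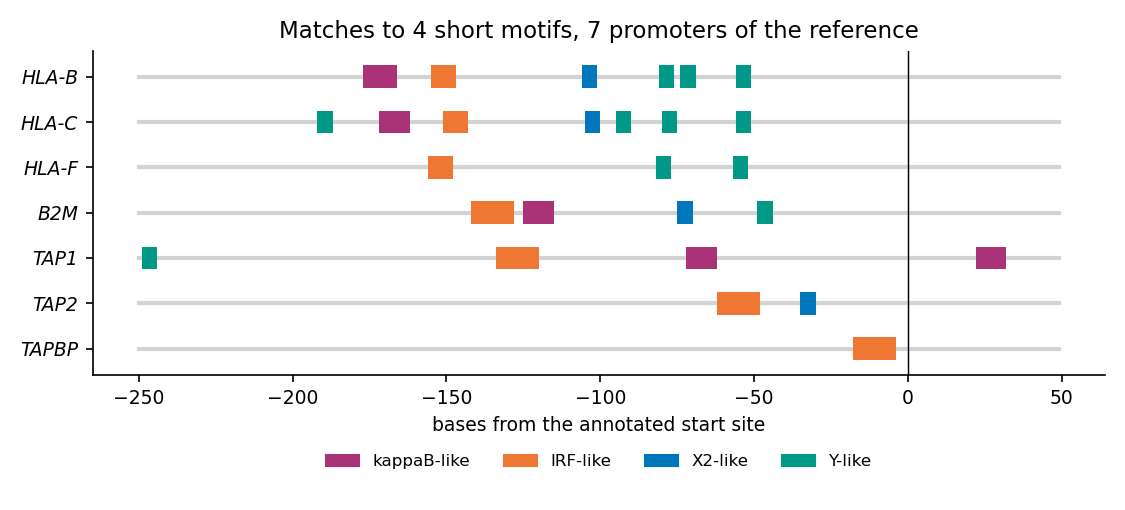
Matches to the 4 motifs in the 7 promoters, against the distance in bases from the annotated start site (vertical line), with 1 coloured box a match. An X2-like box with a Y-like box a short way to its right is seen in HLA-B, HLA-C and B2M, and TAPBP has IRF-like boxes only.

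The libraries held between 7788679 and 12602988 counts, and the 1CT-A libraries were deeper by a factor of 1.43 on average. Libraries of one cell line differed by more than counting noise (chi-square divided by its degrees of freedom, from 3.0 to 8.42), so none was a copy of another. APC was 46.6 ± 2.75 CPM (a gene's counts scaled to the total of its library) in 1CT and 31.9 ± 2.21 in 1CT-A (SD, n = 3 each), and fell with a log2 fold change of -0.58 (SE 0.09, adjusted p = 1.8e-04). The epithelial identity of the labels was hardly visible. Of 7 epithelial markers, EPCAM and VIL1 had no count in any library, and the 7 together summed to between 13.4 and 17.3 CPM in 1CT and between 3.23 and 7.2 in 1CT-A. The 5 mesenchymal markers (VIM, COL1A1, COL1A2, DCN, PDGFRB) summed to between 4282 and 5300 CPM in 1CT and between 3865 and 4144 in 1CT-A. Of 6 immune markers PTPRC, CD3E and NKG7 had no count, and the 6 summed to 0.710 to 2.31 CPM in 1CT and 0.439 to 0.635 in 1CT-A. The part of these differences in the results below was not tested. In bulk RNA, fewer cells of a type and less RNA per cell cannot be told apart.

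Of the 9 members, 8 had enough counts to be tested in the fit across 12514 genes, and HLA-F did not. TAPBP, HLA-E and HLA-B fell in 1CT-A, and TAP2 rose. HLA-C, B2M, TAP1 and NLRC5 did not pass the test. That is 4 of 8 called (edgeR quasi-likelihood test, adjusted p under 0.05), beside 51.0% of all genes tested, with 3 lower beside 26.0% and 1 higher beside 25.0%. Without 1CT replicate 1, 5 members were lower, TAP1 and HLA-F being added. The share called was close to that of all genes and is no result about the pathway as a group. The median log2 fold change of the 8 was -0.20, and that of all genes tested was -0.01. The values of the 2 cell lines did not overlap for 5 of the 8, beside 59.1% of all genes tested. With 3 libraries a side, the smallest p that exact permutation of a single gene's values can give is 0.1, which these 5 reached, so calls rest on the fit across all genes.

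**Figure D2:**
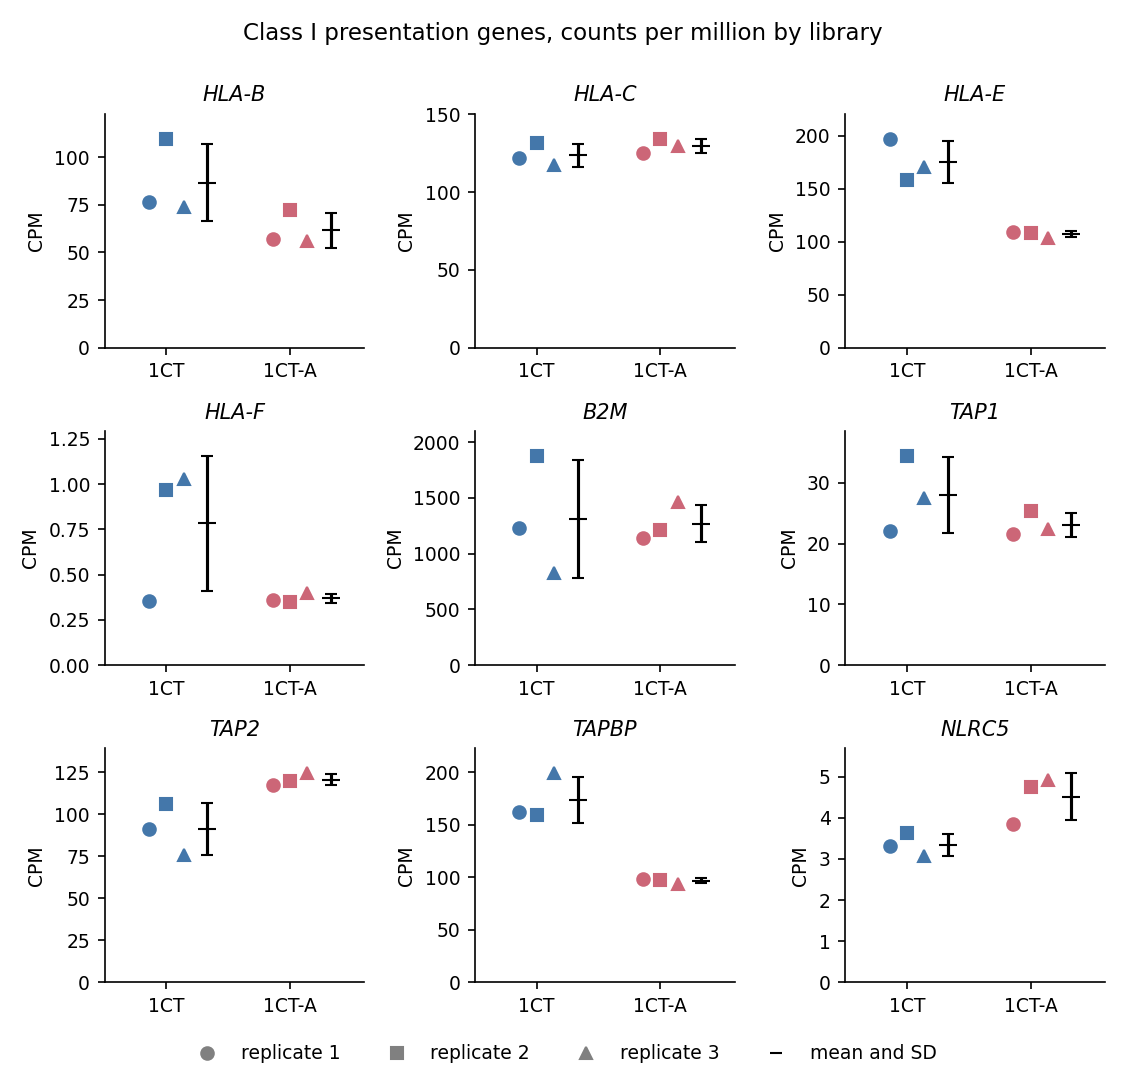
CPM of each of the 9 members in each library (points, shape for the replicate number), with the mean and SD over 3 libraries beside them, from 0 on every axis. HLA-E and TAPBP are lower in all 3 1CT-A libraries and tightly grouped there, TAP2 is higher, and B2M spreads from 825.0 to 1875 CPM within 1CT.

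Among the classical heavy chains, HLA-B fell and HLA-C did not pass the test. HLA-B was at 76.5, 109.6 and 73.6 CPM in the 1CT libraries 1 to 3 and at 57.0, 72.1 and 55.8 CPM in the 1CT-A libraries. Replicate 2 was the highest in both cell lines, and the lowest 1CT library lay just above the highest 1CT-A library. The mean went from 86.6 ± 20.0 to 61.6 ± 9.12 CPM (SD, n = 3), 1.44-fold lower in the fit (log2 fold change -0.53, SE 0.14, adjusted p = 0.00668).

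HLA-C was at 122.0, 131.8 and 117.3 CPM in 1CT and at 125.3, 134.4 and 129.4 CPM in 1CT-A. The 2 groups overlapped, and replicate 2 was again the highest in each. The log2 fold change was 0.03 (SE 0.07, adjusted p = 0.757) with a 95% interval from -0.13 to 0.19, so a fall as large as the estimate for HLA-B lay outside the interval. The estimate for HLA-C turned to -0.03 with upper-quartile normalization. Whether the alleles of this line match the reference equally well for the 2 genes was not tested.

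HLA-E, the ligand of the inhibitory NKG2A receptor, was at 197.2, 158.5 and 170.5 CPM in 1CT and at 108.7, 108.4 and 103.5 CPM in 1CT-A. All 1CT-A libraries were lower than all 1CT libraries, and they lay within a narrow range. The mean went from 175.4 ± 19.8 to 106.9 ± 2.89 CPM, 1.69-fold lower (log2 fold change -0.75, SE 0.09, adjusted p = 1.0e-05).

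HLA-F was barely detected, with 3, 8 and 8 counts in 1CT against 4, 4 and 5 in 1CT-A, or 0.355, 0.966 and 1.03 CPM against 0.358, 0.351 and 0.397 CPM. The groups overlapped, and it was left out of the test for low counts. It was tested under 3 alternatives, and its log2 fold change was -1.04 with no filter (adjusted p = 0.225), -1.10 in DESeq2 (adjusted p = 0.346) and -1.44 without 1CT replicate 1 (adjusted p = 0.0399).

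Summed over the 4 genes, heavy chain counts were 396.1, 401.0 and 362.4 CPM in 1CT and 291.4, 315.3 and 289.1 CPM in 1CT-A, so the groups did not overlap. The means were 386.5 ± 21.0 and 298.6 ± 14.5 CPM. Within this sum HLA-C took 30.8%, 32.9% and 32.4% of the counts in 1CT and 43.0%, 42.6% and 44.8% in 1CT-A, a larger share in every 1CT-A library. HLA-E took 49.8%, 39.5% and 47.0% in 1CT and 37.3%, 34.4% and 35.8% in 1CT-A. HLA-E thus had the largest share in all 3 1CT libraries and HLA-C in all 3 1CT-A libraries. These are shares of 3′ end counts. A share depends on all 4 genes, and the CPM of HLA-C itself overlapped between the cell lines. Both differences had an exact two-sided permutation p of 0.1, the smallest that 3 against 3 allows, and 0.18 after Benjamini-Hochberg adjustment over 9 shares and ratios. The share of HLA-B, 22.3% ± 4.37 against 20.6% ± 2.00, had an exact permutation p of 0.6 (adjusted 0.675), and that of HLA-F, 0.205% ± 0.102 against 0.124% ± 0.0129, one of 0.4 (adjusted 0.514).

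B2M, the light chain that pairs with class I heavy chains, did not pass the test, and its libraries disagreed in 1CT. It was at 1234, 1875 and 825.0 CPM in 1CT and at 1140, 1209 and 1461 CPM in 1CT-A. The 3 1CT-A libraries lay inside the range of the 1CT libraries, whose highest was 2.27 times the lowest. The coefficient of variation was 40.4% in 1CT, against 0.96% from counting alone, and was larger than for 99.2% of the 8224 genes that averaged 10 CPM or more. In 1CT-A it was 13.3%. The B2M log2 fold change was -0.08 (SE 0.20, adjusted p = 0.756) with a 95% interval from -0.52 to 0.35. The direction hung on single 1CT libraries, since it was -0.31 without 1CT replicate 3 (adjusted p = 0.0430) and 0.27 without 1CT replicate 2 (adjusted p = 0.126).

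The log2 ratio of summed heavy chain counts to B2M counts was -1.64, -2.23 and -1.19 in 1CT and -1.97, -1.94 and -2.34 in 1CT-A. The groups overlapped (exact permutation p = 0.3, adjusted 0.45), and the spread in 1CT followed B2M, since the summed heavy chains there varied far less.

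The 2 chains of the peptide transporter had estimates of opposite sign. TAP1 was at 22.0, 34.4 and 27.5 CPM in 1CT and at 21.6, 25.4 and 22.5 CPM in 1CT-A. The groups overlapped, with 1CT replicate 1 among the 1CT-A values. The TAP1 log2 fold change was -0.31 (SE 0.14, adjusted p = 0.0842), and it passed the threshold with upper-quartile normalization (-0.37, adjusted p = 0.0446) and without 1CT replicate 1 (-0.46, adjusted p = 0.00995).

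TAP2 was at 91.2, 106.3 and 75.6 CPM in 1CT and at 117.5, 119.8 and 124.2 CPM in 1CT-A. Every 1CT-A library was above every 1CT library, and the 1CT-A libraries were the more alike. The mean went from 91.0 ± 15.3 to 120.5 ± 3.39 CPM, 1.29-fold higher (log2 fold change 0.37, SE 0.10, adjusted p = 0.00840).

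The log2 ratio of TAP1 to TAP2 counts within a library was -2.05, -1.63 and -1.46 in 1CT and -2.44, -2.24 and -2.47 in 1CT-A. It was lower in every 1CT-A library (exact permutation p = 0.1, adjusted 0.18). In the annotation TAP1 lies wholly within the span of PSMB9 on the other strand, and TAP2 within a protein-coding readthrough gene of its own strand. Which of these genes a read was given to was not stated, so the counts of TAP1 and TAP2 are uncertain to that extent.

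TAPBP, which encodes the peptide-editing chaperone tapasin, had the largest change among the members. It was at 162.4, 159.0 and 198.6 CPM in 1CT and at 98.2, 97.7 and 93.9 CPM in 1CT-A. The groups lay far apart, with the 1CT-A libraries nearly equal. The mean went from 173.4 ± 21.9 to 96.6 ± 2.33 CPM, 1.84-fold lower (log2 fold change -0.88, SE 0.09, adjusted p = 5.3e-06).

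NLRC5, the class I transactivator, was at 28, 30 and 24 counts in 1CT and at 43, 54 and 62 in 1CT-A, which is 3.31, 3.62 and 3.08 CPM against 3.85, 4.74 and 4.92 CPM. All 1CT-A libraries were above all 1CT libraries, but the counts were low. The log2 fold change was 0.39 (SE 0.22, adjusted p = 0.145), with a 95% interval from -0.07 to 0.86 that holds both no change and a rise larger than that of TAP2.

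**Figure D3:**
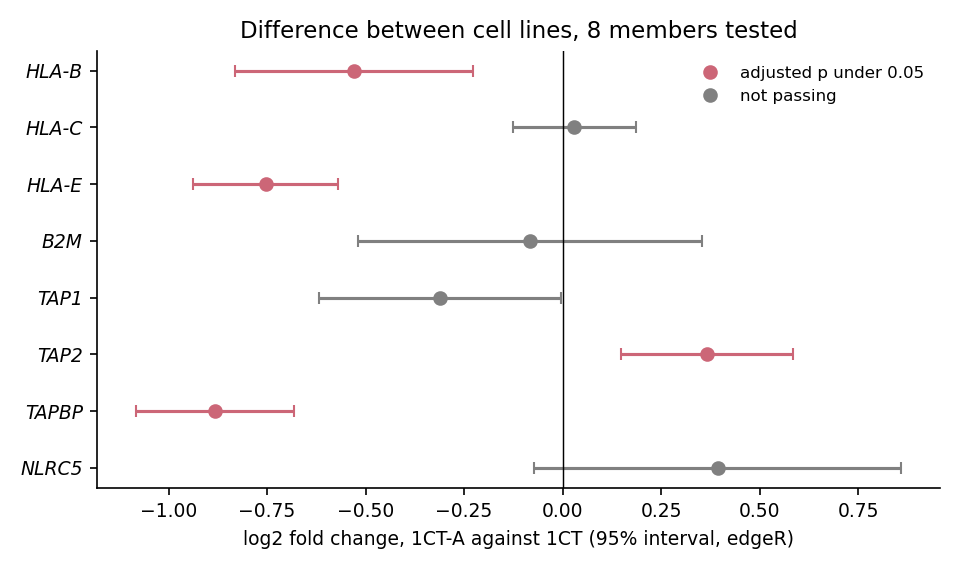
Log2 fold change from 1CT to 1CT-A for the 8 members tested, with 95% intervals from edgeR; red points pass adjusted p under 0.05. TAPBP, HLA-E and HLA-B lie below 0 and TAP2 above, while the intervals of HLA-C, B2M and NLRC5 cross 0 and that of TAP1 ends at -0.004.

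**Figure D4:**
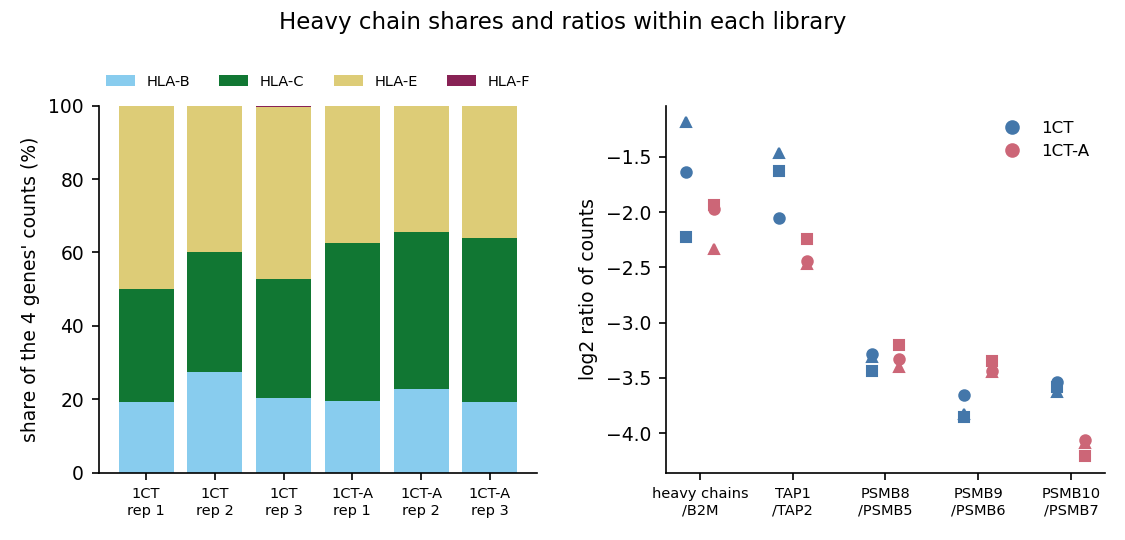
Left, the percent of the summed heavy chain counts that HLA-B, HLA-C, HLA-E and HLA-F took in each library; right, log2 ratios of counts within each library (blue 1CT, red 1CT-A, shape for the replicate number). The share of HLA-C is 32.0% in 1CT and 43.5% in 1CT-A on average, while its own CPM overlaps between the cell lines. The TAP1 to TAP2 and PSMB10 to PSMB7 ratios are lower in every 1CT-A library.

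The immunoproteasome, which cuts peptides suited to class I grooves, swaps 3 catalytic subunits of the standard proteasome. PSMB10 fell from 61.5 ± 4.32 to 46.9 ± 4.04 CPM (log2 fold change -0.43, SE 0.10, adjusted p = 0.00223). Its log2 ratio to PSMB7, the subunit it replaces, was -3.54, -3.59 and -3.63 in 1CT and -4.06, -4.21 and -4.09 in 1CT-A, lower in every 1CT-A library (exact permutation p = 0.1, adjusted 0.18). PSMB9 was at 16.1, 14.5 and 14.5 CPM in 1CT and 17.8, 19.7 and 17.3 CPM in 1CT-A (log2 fold change 0.24, SE 0.12, adjusted p = 0.106). Its log2 ratio to PSMB6 was higher in every 1CT-A library, with means of -3.78 and -3.41 (exact permutation p = 0.1, adjusted 0.18). PSMB8 was at 44.2 ± 4.07 and 47.3 ± 3.77 CPM, and its ratio to PSMB5 overlapped, at -3.34 and -3.31 (exact permutation p = 0.8). Of the 5 immunoproteasome and activator genes 1 fell and 4 did not pass (median log2 -0.01), where 26.0% of all genes tested fell. PSMB5, PSMB6 and PSMB7 did not pass either (median 0.03), though 1 of these 3 rose without 1CT replicate 3.

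Of 8 peptide loading and trimming genes tested, 2 fell and 6 did not pass (median log2 -0.19), a share of falls near the 26.0% of all genes. It was 1 without 1CT replicate 2, 1CT replicate 3, 1CT-A replicate 1 or 1CT-A replicate 2, and 3 without 1CT replicate 1. ERAP1, which trims peptides in the endoplasmic reticulum, fell from 30.3 ± 3.83 to 23.5 ± 1.40 CPM (log2 fold change -0.40, SE 0.11, adjusted p = 0.00808). The chaperone CANX had a log2 fold change of 0.07, the glycoprotein sensor UGGT1 one of 0.06 and the disulfide isomerase PDIA3 one of -0.03. ERAP2, named after its values were seen, fell with only 10, 16 and 16 counts in 1CT and 10, 6 and 13 in 1CT-A, a call lost under 6 of 15 alternatives (adjusted p up to 0.1499).

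Of 8 other class I and class I-like heavy chains, 7 were tested, of which 5 fell, 1 rose and 1 did not pass (median log2 -0.75, beside -0.01 for all genes). Of all genes tested, 26.0% fell and 25.0% rose. MICA, a stress-induced ligand of the activating NKG2D receptor that binds neither B2M nor peptide, was at 75.6, 72.9 and 77.7 CPM in 1CT and 17.7, 22.3 and 19.5 CPM in 1CT-A. The groups were far apart, and MICA was 3.91-fold lower (log2 fold change -1.97, SE 0.10, adjusted p = 6.7e-09). MR1, which shows vitamin B metabolites to MAIT cells, fell from 46.3 ± 3.76 to 28.4 ± 2.21 CPM (log2 fold change -0.75, SE 0.10, adjusted p = 4.0e-05). PROCR, the endothelial protein C receptor, rose from 56.6 ± 14.1 to 112.3 ± 6.24 CPM (log2 fold change 0.95, SE 0.13, adjusted p = 6.9e-05). CD1D, FCGRT and MICB, named after their values were seen, also fell, the call of MICB being lost under 6 of 16 alternatives (adjusted p up to 0.143). CD1D had 20, 21 and 23 counts in 1CT and 3, 0 and 1 in 1CT-A.

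Further NKG2D ligands were at low counts. Of 6 listed 2 were tested, ULBP1 and ULBP2, and both fell, where 26.0% of all genes tested fell. ULBP2 had 39, 34 and 18 counts in 1CT and 10, 18 and 14 in 1CT-A, and ULBP1 had 12, 9 and 14 against 3, 3 and 4. Both were named after their values were seen.

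Factors that bind the S-X-Y module moved upward or did not pass the test. Of 8 tested, 4 rose and 4 did not pass (median log2 0.46), where 25.0% of all genes tested rose. In edgeR 0 fell, also at an unadjusted p under 0.05. ATF1 was at 16.3, 14.7 and 16.2 CPM in 1CT and 33.4, 35.8 and 37.5 CPM in 1CT-A, 2.20-fold higher (log2 fold change 1.14, SE 0.10, adjusted p = 1.4e-06). RFX5, the X1 box factor, rose from 9.17 ± 1.63 to 14.2 ± 1.67 CPM (log2 fold change 0.59, SE 0.16, adjusted p = 0.00716). The NF-Y subunits NFYB and NFYC rose by log2 0.53 (SE 0.09) and 0.43 (SE 0.10). These rises stood beside an HLA-B that fell, and beside HLA-C and B2M, which did not pass. Of the members' promoters searched above, only those of HLA-B, HLA-C and B2M held both the X2-like and Y-like letters. A link between these factors and the members was not tested. No promoter of HLA-E was searched.

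Of 14 interferon and NF-kB input genes tested, 4 fell, 1 rose and 9 did not pass (median log2 -0.18), a share of falls near the 26.0% of all genes. The falls went to 2 without 1CT replicate 2 and to 2 without 1CT-A replicate 3. IFNGR2, a chain of the interferon gamma receptor, fell from 79.9 ± 6.48 to 59.3 ± 3.78 CPM (log2 fold change -0.47, SE 0.08, adjusted p = 5.0e-04). STAT2 had a log2 fold change of -0.31 (adjusted p = 0.0909) and IRF1 one of -0.29 (adjusted p = 0.195). SOCS1, an inhibitor of JAK signalling named after its values were seen, rose from 6, 17 and 12 counts to 57, 66 and 78.

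Regulators of class I at the cell surface moved in both directions, with 3 higher, 2 lower and 2 not passing of 7 (median log2 -0.03), where 25.0% of all genes tested rose and 26.0% fell. MARCHF4, a membrane ubiquitin ligase that can remove class I from the surface, was at 29.3, 28.1 and 30.04 CPM in 1CT and 9.05, 9.48 and 7.93 CPM in 1CT-A, 3.4-fold lower (log2 fold change -1.77, SE 0.12, adjusted p = 1.1e-07). Its relative MARCHF9, named after its values were seen, went the other way, from 4, 8 and 2 counts to 47, 52 and 68. TMEM127, part of a complex that sends class I to lysosomes, fell by 0.58 on the log2 scale (SE 0.11). EZH2, the Polycomb methyltransferase that can silence class I genes, rose by log2 0.43 (SE 0.10), and the protease SPPL3 by 0.25 (SE 0.09, adjusted p = 0.0415), a call that was lost under 10 of the 16 alternatives. Surface class I itself was not measured.

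Class II genes were silent or at low counts. Of 8 listed 2 were tested, HLA-DRA and HLA-DRB1 had no count in any library, and CIITA, the class II counterpart of NLRC5, had at most 1 count in a library. HLA-DPB1, the 1 gene that passed, had 37, 38 and 34 counts in 1CT and 21, 31 and 34 in 1CT-A (log2 fold change -0.90, SE 0.24, adjusted p = 0.00615). Of all genes tested, 26.0% fell. HLA-DMA, the other class II gene tested, did not pass and had an estimate of opposite sign (log2 fold change 0.79, SE 0.35, adjusted p = 0.0747). These class II genes were named after their values were seen.

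**Figure D5:**
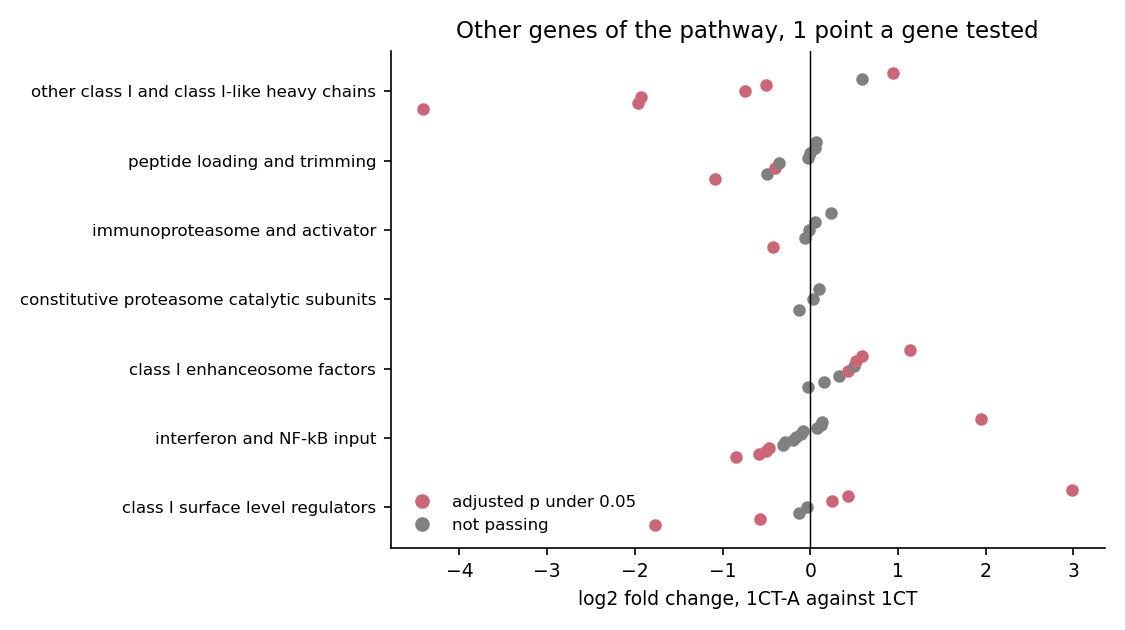
Log2 fold change from 1CT to 1CT-A (horizontal axis), 1 point a gene tested, by list; red points pass adjusted p under 0.05 and points are spread vertically only to separate them. Class I-like heavy chains lie mostly to the left with MICA at -1.97, and the enhanceosome factors mostly to the right with ATF1 at 1.14.

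The genes between the MHC members were described the same way. From HLA-F to TAPBP (chr6:29722775-33314284), 79 other genes were tested, of which 17 rose (21.5%), 12 fell (15.2%) and 50 did not pass, beside 25.0% and 26.0% of all genes tested, with a median log2 fold change of 0.00. The genes whose pattern over the 6 libraries was most like a member's were looked for among 8224 genes, by the root mean square difference of centred log2 values. The nearest to TAPBP was OSBPL5 (0.03), to HLA-E CLTB (0.03), to HLA-B CCDC68 (0.08) and to TAP2 CRKL (0.04), with CERS5, SH3BP1, TRIB2 and PRKAA1 next. For the members that did not pass, the nearest were RHOQ for HLA-C (0.02), PCMTD2 for B2M (0.08), GDF15 for TAP1 (0.07) and SF3B6 for NLRC5 (0.03), followed by TMEM30A, COL12A1, FKBP9 and TMTC3.

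Reads that fit several HLA genes were considered through the annotated sequences. In the last 300 bases of each member's transcript, none of 251 words of 50 bases occurred in another gene for the members other than HLA-F, for which 3 did, and none of 226 words of 75 bases did for all 9. The symbols of 7 members appeared in several entries for alternate haplotypes, but all counts of a member stood in 1 entry, and adding the entries changed no value. Antisense or overlapping transcripts were annotated for HLA-B, HLA-F, TAPBP and NLRC5 as well. Reads from those on the opposite strand cannot be told apart where strand was not used in counting. HLA-B also overlaps DHFRP2 and MIR6891 on its own strand, whose reads strand cannot separate.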

How the data were processed

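RNA from 1CT and 1CT-A cells (3 libraries each) was made into QuantSeq 3′ libraries, per the labels. The authors deposited raw counts per gene entry, whole numbers without normalization, 1 table per library. The submitters' processing notes name hg19, Bowtie2 and edgeR. The counting tool, annotation, strand setting and filters are not given in the sources used here. The labels name Trizol for extraction and the paper another kit.

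Entries of a symbol were summed. CPM is relative to a library's total. Genes were tested with edgeR 4.0.16 in R 4.3.3 (TMM factors from 0.976 to 1.02, filterByExpr with a minimum count of 10, quasi-likelihood test without a block), with Benjamini-Hochberg adjustment over 12514 genes and a threshold of 0.05. DESeq2 1.42.0 and limma 3.58.1 were alternatives, together with other scalings, filters and left-out libraries. The fit was tested on simulated data. The study's thresholds, a fold of 2 and an unadjusted p under 0.01, were an alternative. They were applied here to the edgeR estimates and p-values, whereas the study used a two-tailed t-test. Shares and ratios were tested by exact two-sided permutation.

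The members and lists were chosen with earlier results of these data known. Named were all members, and of each list the up to 4 genes with the largest absolute change and a mean of at least 10 CPM. Others are said to be named after their values were seen. A listed gene that the rule names is not reported here. Counting error sets a floor of 3 counts and leaves out variation between cultures.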

Additional observations from a re-analysis of the deposited data

How the results depend on the processing

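HLA-B, HLA-E, TAP2 and TAPBP kept their direction and passed the threshold of 0.05 under every alternative except the study's thresholds, with adjusted p up to 0.0384 for HLA-B and 0.0347 for TAP2. With a fold of 2 and an unadjusted p under 0.01, 0 members passed, 0 higher and 0 lower, as HLA-B (-0.53), HLA-E (-0.75), TAP2 (0.37) and TAPBP (-0.88) lie under that fold, while 1676 genes passed, 475 higher and 1201 lower. Upper-quartile normalization turned HLA-C to -0.0268 and brought TAP1 past the threshold at -0.37. NLRC5 passed under none, with adjusted p from 0.113 to 0.353.

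Leaving out 1 library at a time, 4 to 6 members passed, 3 to 5 of them lower. The 5 without 1CT replicate 1 included TAP1 and HLA-F, which then entered the test. B2M ranged from -0.31 to 0.27, TAP1 from -0.46 to -0.14, HLA-B from -0.65 to -0.33, HLA-E from -0.82 to -0.66, TAP2 from 0.27 to 0.49 and TAPBP from -0.94 to -0.76. The difference in the share of HLA-B ranged from -3.24 to 0.77 percentage points, turning without 1CT replicate 2, and that of the log2 ratio of PSMB8 to PSMB5 from -0.0228 to 0.0769, turning without replicate 2 of either cell line. The cause was not tested. Genes passing ranged from 5364 to 6551.

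Whether the replicate numbers pair the libraries is not known. Same-numbered libraries correlated at -0.16, 0.22 and -0.14 over 8231 genes, and not every library correlated best with its own number. The values were centred within each cell line, so these correlations depend on each other and cannot exclude pairing. A fit with the replicate number as a block gave 4 members passing (1 higher, 3 lower) and 6091 genes, with HLA-B at -0.52 and B2M at -0.02. Of the 33 other listed genes that passed, markers and APC included, 26 did so under every alternative that tested them, apart from the study's thresholds, and 0 changed direction. Depth was lowest for HLA-F (3 to 8 counts a library) and NLRC5 (24 to 62).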
